A study of Mus musculus with 9 samples.

Results

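The genes described here are 30 enzymes, carriers and regulators of glycolysis and the pentose phosphate pathway, taken by name from the 29229 genes of the deposited count table. All 30 were found there, and all 30 passed the filter on low counts. They cover glucose uptake and trapping (4 genes), upper glycolysis (7), lower glycolysis (6), lactate and its export (4), kinases that regulate the pathway (3) and the pentose phosphate pathway (6). RNA was sequenced from splenic T cells of mice after hematopoietic stem cell transplantation, in 3 allogeneic, 3 syngeneic and 3 naive libraries, to ask how donor T cells differ between a mismatched and a matched host. Allogeneic libraries held C57BL/6 (H-2b, CD45.2) donor T cells from CByJ.SJL(B6)-Ptprca/J hosts (H-2d, CD45.1), which had been irradiated with 8 Gy and given 1000000 T cells. Syngeneic libraries held C57BL/6 donor T cells from B6.SJL-Ptprca Pepcb/BoyJ hosts (H-2b, CD45.1), which had been irradiated with 9.5 Gy and given 8500000 T cells. Both kinds of host also received 5000000 T-cell-depleted marrow cells of C57BL/6 donors and were examined on day 7. Naive libraries came from healthy C57BL/6 mice without a transplant. Mice were females of 8 to 12 weeks.

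Cells of 2 to 4 hosts were pooled for each transplant library, and enrichment with a pan-T-cell kit preceded the sort for living CD3+ CD45.2+ cells. The allogeneic and syngeneic groups differ in host strain, radiation dose and number of T cells given as well as in the match, and these cannot be told apart. The marrow came from the same CD45.2 strain, so that cells which grow out of it pass that gate too. Library totals were 103953932 to 176678189 counts. The 10 T-cell markers were detected in every group and summed to 5376 to 5817 CPM (counts scaled to a library total of 1000000) in allogeneic libraries, 3912 to 4822 CPM in syngeneic libraries and 5227 to 5739 CPM in naive libraries. Markers of other cells were also present. The 11 erythroid markers summed to 44.5, 15.4 and 21.4 CPM in allogeneic libraries 1, 2 and 3, against 2232, 5728 and 4896 CPM in syngeneic libraries and 2.05 to 2.34 CPM in naive libraries. Syngeneic library 1 stood apart from syngeneic libraries 2 and 3 in these markers, and results that rest on it are given with and without it. The share of counts on Gm26917 and Gm42418, which lie at a ribosomal RNA locus, was 17.2, 9.06 and 7.87% in allogeneic libraries, 19.4 to 22.4% in syngeneic libraries and 15.8 to 18.8% in naive libraries. Allogeneic library 1 thus stood apart from allogeneic libraries 2 and 3, and it also had the most erythroid marker RNA of its group.

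Glycolysis splits glucose into pyruvate, which lactate dehydrogenase can turn into lactate for export or which can enter mitochondria, where pyruvate dehydrogenase makes acetyl-CoA from it. The pentose phosphate pathway branches off after hexokinase and makes NADPH and ribose phosphate, which dividing cells need for lipids and nucleotides. Resting T cells rely largely on mitochondrial respiration, whereas activated T cells are known to raise glucose uptake and to release lactate even where oxygen is present. Many steps are served by more than 1 isozyme, and the choice of isozyme is known to change with activation, hypoxia and tissue.

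Allogeneic libraries held more RNA of most of the 30 genes than either other group. Their summed level was 6120, 5771 and 6127 CPM in allogeneic libraries, 4332, 4003 and 4527 CPM in syngeneic libraries and 3286, 3276 and 3598 CPM in naive libraries, with no overlap between groups. With Gm26917 and Gm42418 left out of the totals, a setting added after seeing the data, it was 7396, 6346 and 6650 CPM in allogeneic, 5584, 5060 and 5615 CPM in syngeneic and 4029, 4036 and 4273 CPM in naive libraries. The ratio of allogeneic to syngeneic means was then 1.25, against 1.40 with the full totals, and the groups still did not overlap. In allogeneic against syngeneic cells, 18 of the 30 genes (60.0%) were higher and 5 (16.7%) were lower at an adjusted p under 0.05, where 24.3% of the 19609 genes tested were higher and 20.7% were lower. Against naive cells, 22 allogeneic values (73.3%) were higher and 3 (10.0%) lower, where 31.8% and 25.9% of all tested genes were. For syngeneic against naive cells, 17 (56.7%) were higher and 2 (6.7%) lower, where 22.4% and 19.5% of all tested genes were. The median log2 fold change of the 30 genes was 0.39, 0.76 and 0.34 in these 3 comparisons, beside -0.025, -0.01 and 0.006 over all tested genes. The libraries of the groups did not overlap for 24, 26 and 21 of the 30 genes, where 52.7%, 65.1% and 56.5% of all tested genes did not. With Gm26917 and Gm42418 out of the totals these counts were 21, 27 and 22. Eno1, Pgls and Taldo1 then overlapped between allogeneic and syngeneic libraries and Pfkfb3 between syngeneic and naive libraries. Eno3 was then apart in allogeneic and naive libraries, and Eno1 and Pkm in syngeneic and naive libraries. The 3 comparisons share libraries and are not independent of each other. In bulk RNA, fewer cells of a type and less RNA per cell cannot be told apart.

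The T-cell markers also differed between groups. Of the 10 markers, 6 (60.0%) were higher and 1 was lower in allogeneic against syngeneic cells, with a median log2 fold change of 0.50, 1 was higher and 1 lower in allogeneic against naive cells (median -0.05), and 1 was higher and 7 lower in syngeneic against naive cells (median -0.60). As shares higher and lower these are 60.0% and 10.0%, 10.0% and 10.0%, and 10.0% and 70.0%. All tested genes gave 24.3% and 20.7%, 31.8% and 25.9%, and 22.4% and 19.5%. Cd4, the coreceptor of helper T cells, stood at 446, 414 and 410.1 CPM in allogeneic libraries, 223, 199.6 and 171 CPM in syngeneic libraries and 446, 434 and 469 CPM in naive libraries, and was 2.16-fold higher in allogeneic than in syngeneic cells (edgeR adjusted p = 5.48e-05). Cd8a, the coreceptor of cytotoxic T cells, stood at 319, 430.0 and 431 CPM in allogeneic libraries, 657, 520.4 and 578 CPM in syngeneic libraries and 421, 404 and 454 CPM in naive libraries, and was 1.49-fold lower in allogeneic than in syngeneic cells (edgeR adjusted p = 0.0038). The part of T-cell content and of the mix of T cells in the values of the 30 genes was not tested.

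Adjusted p-values came from edgeR's quasi-likelihood test with Benjamini-Hochberg adjustment over all 19609 tested genes. After a log2 fold change, ± gives the SE, and after a level in CPM it gives the SD over 3 libraries. Values in CPM follow the order of libraries 1, 2 and 3, and these numbers were not taken to pair libraries across groups.

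**Figure D1:**
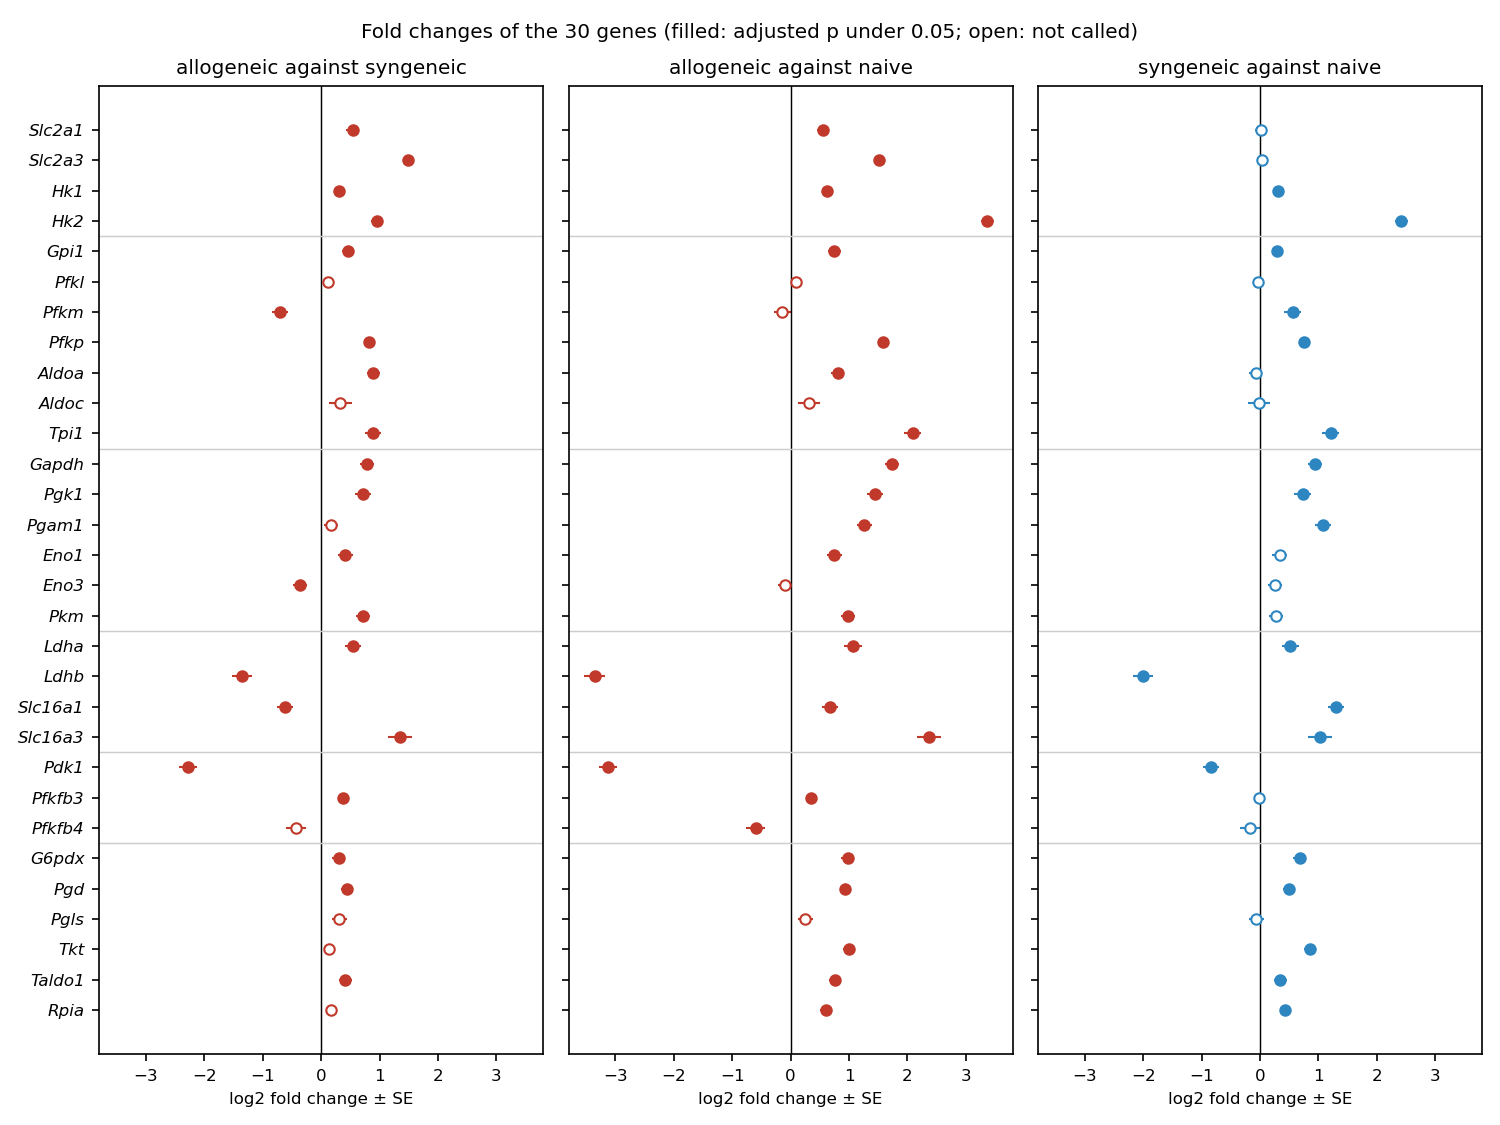
Log2 fold change (x axis, bars ± SE) of each of the 30 genes in 3 comparisons, grouped by step from glucose uptake at the top to the pentose phosphate pathway at the bottom. Filled points passed an adjusted p under 0.05 and open points did not. Most points lie right of 0, while Pdk1 and Ldhb lie left of it in all 3 panels, at -2.28 and -1.35 in allogeneic against syngeneic cells.

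Promoters of 6 genes, chosen after their values were seen as examples with and without the letters, are shown because the hypoxia-inducible factors, described further on, are known to bind the core letters ACGTG. The windows run from 250 bases before to 50 bases after the start that RefSeq lists first for the gene (GRCm38.p6), and capitals mark ACGTG or its reverse CACGT. Hk2 (chr6:82774405-82774704, minus strand), Ldha (chr7:46845554-46845853, plus strand), Slc16a3 (chr11:120948817-120949116, plus strand) and Pgk1 (chrX:106186850-106187149, plus strand) were higher in allogeneic than in naive cells and held the letters. Pdk1 (chr2:71872974-71873273, plus strand) and Ldhb (chr6:142507908-142508207, minus strand) were lower in allogeneic than in naive cells and did not hold them in these windows.
Hk2: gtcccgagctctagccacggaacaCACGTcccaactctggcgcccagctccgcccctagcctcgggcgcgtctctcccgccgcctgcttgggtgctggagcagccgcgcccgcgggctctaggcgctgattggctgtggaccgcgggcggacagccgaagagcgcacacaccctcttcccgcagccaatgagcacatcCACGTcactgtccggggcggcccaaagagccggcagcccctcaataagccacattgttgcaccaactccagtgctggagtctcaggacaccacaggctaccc
Ldha: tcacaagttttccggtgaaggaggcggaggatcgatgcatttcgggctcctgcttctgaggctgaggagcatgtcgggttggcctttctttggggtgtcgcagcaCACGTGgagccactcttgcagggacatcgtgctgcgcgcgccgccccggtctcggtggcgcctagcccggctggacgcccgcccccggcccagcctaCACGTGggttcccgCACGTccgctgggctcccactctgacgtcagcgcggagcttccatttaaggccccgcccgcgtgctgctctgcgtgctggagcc
Slc16a3: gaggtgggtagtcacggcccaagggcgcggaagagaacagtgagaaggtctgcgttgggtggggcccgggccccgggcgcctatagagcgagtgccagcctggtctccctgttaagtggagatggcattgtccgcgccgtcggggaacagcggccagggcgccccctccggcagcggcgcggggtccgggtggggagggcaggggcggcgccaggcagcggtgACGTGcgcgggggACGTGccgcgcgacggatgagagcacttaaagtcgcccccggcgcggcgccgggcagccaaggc
Pgk1: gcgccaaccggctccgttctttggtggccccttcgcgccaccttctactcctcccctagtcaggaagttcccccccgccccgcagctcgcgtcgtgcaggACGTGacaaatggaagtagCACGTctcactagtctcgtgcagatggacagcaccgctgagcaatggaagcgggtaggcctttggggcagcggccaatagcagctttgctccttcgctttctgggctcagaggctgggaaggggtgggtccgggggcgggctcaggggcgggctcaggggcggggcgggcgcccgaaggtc
Pdk1: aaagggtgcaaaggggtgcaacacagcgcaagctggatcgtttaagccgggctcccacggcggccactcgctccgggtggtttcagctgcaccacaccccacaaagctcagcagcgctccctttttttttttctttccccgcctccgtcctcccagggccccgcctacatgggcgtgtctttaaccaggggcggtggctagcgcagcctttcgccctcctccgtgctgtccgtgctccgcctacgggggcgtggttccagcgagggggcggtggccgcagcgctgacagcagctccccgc
Ldhb: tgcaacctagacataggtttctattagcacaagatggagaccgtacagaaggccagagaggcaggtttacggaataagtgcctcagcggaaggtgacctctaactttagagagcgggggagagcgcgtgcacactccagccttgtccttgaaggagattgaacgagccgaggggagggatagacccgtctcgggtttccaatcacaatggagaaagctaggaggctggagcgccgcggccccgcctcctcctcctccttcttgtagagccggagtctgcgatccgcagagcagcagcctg
Counted from the start, the Hk2 matches lay at -226 and -52, those of Ldha at -145, -144, -48, -47 and -34, those of Slc16a3 at -27 and -14, and those of Pgk1 at -150 and -131. Ldha matches that lie 1 base apart are the forward and reverse letters of the palindrome CACGTG, which the MYC family is known to bind. A RefSeq window was available for 29 of the 30 genes, all but Slc2a3. Some genes have windows at further starts, and a gene was counted below if any of its windows held the letters. In Hk1, Aldoa and Pkm the window listed first held no match and a later one did. By window, ACGTG was in 18 of 43 (41.9%), against 6447 of 32851 windows of all genes (19.6%). By gene, ACGTG on either strand was in 15 of these 29 genes (51.7%), against 5886 of 27025 genes with a window (21.8%) and 3321 of the 11799 genes among them that were tested here (28.1%). It was in 13 of the 21 genes that were higher in allogeneic than in naive cells, in 0 of the 3 that were lower and in 2 of the 5 that were not called. Among the 5 genes lower in allogeneic than in syngeneic cells, Pfkm and Slc16a1 held both ACGTG and CACGTG. The others, Eno3, Ldhb and Pdk1, held neither. A relation of the letters to the direction of change was not tested. The 8 higher genes without it were Tpi1, Pfkp, Tkt, Pgd, Taldo1, Gpi1, Eno1 and Rpia, and the log2 fold changes in allogeneic against naive cells of Tpi1 (2.09) and Pfkp (1.58) exceeded those of Pgk1 (1.45) and Ldha (1.07), which hold it. CACGTG was in 4 of the 29 genes (13.8%), against 8.1% of all genes with a window and 11.1% of those tested. By window it was in 4 of 43 (9.3%), against 2349 of 32851 (7.2%). A match in these letters is a description of sequence and not a measured binding site.

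Glucose uptake and trapping was the step at which all 4 genes were higher in allogeneic cells than in both other groups. Of all tested genes, 24.3% were higher against syngeneic cells and 31.8% against naive cells. Slc2a3 (ENSMUSG00000003153, chr6:122727809-122801640, GENCODE M21 as for all gene positions here) encodes GLUT3, a high-affinity glucose carrier. It stood at 169, 186 and 184 CPM in allogeneic libraries, 63.0, 62.8 and 68.0 CPM in syngeneic libraries and 61.2, 64.1 and 69.8 CPM in naive libraries. Every allogeneic library lay far above the other 6, while syngeneic and naive libraries overlapped. The log2 fold change came to 1.52 ± 0.08, edgeR adjusted p = 4.19e-08, in allogeneic against naive cells, a 2.87-fold difference. In syngeneic against naive cells it was 0.03 ± 0.08, edgeR adjusted p = 0.825.

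Slc2a1, which encodes the more widely expressed carrier GLUT1, stood at 63.2, 72.7 and 62.0 CPM in allogeneic libraries, 49.5, 42.8 and 44.8 CPM in syngeneic libraries and 46.1, 45.7 and 47.8 CPM in naive libraries. The pattern was that of Slc2a3 at a smaller size, with allogeneic libraries above all others and the rest overlapping. In log2, the difference was 0.54 ± 0.11, edgeR adjusted p = 0.00163, in allogeneic against syngeneic cells, and 0.02 ± 0.10, edgeR adjusted p = 0.919, in syngeneic against naive cells. Per kilobase of annotated exon, the level of Slc2a3 was 24.8 CPM and that of Slc2a1 18.8 CPM in allogeneic cells, against 8.92 and 13.03 CPM in syngeneic cells and 8.98 and 13.3 CPM in naive cells. The order of the 2 carriers by level per length therefore differed in allogeneic libraries from that in the other groups. Length here is that of all annotated exons of a gene together, which can exceed that of its expressed RNA. Orders and ratios between genes by length thus depend on the annotation.

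Hexokinase traps glucose inside the cell by phosphorylation. Hk2 (ENSMUSG00000000628, chr6:82725025-82774454), the isozyme that activation is known to induce in T cells, stood at 41.8, 45.17 and 55.6 CPM in allogeneic libraries, 21.4, 24.5 and 28.4 CPM in syngeneic libraries and 4.62, 4.88 and 4.73 CPM in naive libraries. All 3 groups were apart, with naive libraries within a narrow range at the bottom. The level was 10.4-fold higher in allogeneic than in naive cells (log2 fold change 3.37 ± 0.11, edgeR adjusted p = 2.15e-09) and 5.35-fold higher in syngeneic than in naive cells (2.42 ± 0.11, edgeR adjusted p = 4.07e-08). Hk1, the constitutive isozyme, stood at 287, 305 and 307 CPM in allogeneic libraries, 217, 253 and 265 CPM in syngeneic libraries and 199, 199 and 208 CPM in naive libraries, again without overlap. This gave a log2 difference of 0.31 ± 0.08, edgeR adjusted p = 0.00839, in allogeneic against syngeneic cells, and 0.62 ± 0.08, edgeR adjusted p = 4.57e-05, in allogeneic against naive cells. Hk1 remained the more abundant by level per length in every group, at 4.44 times Hk2 in allogeneic cells, 6.94 times in syngeneic cells and 29.8 times in naive cells.

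**Figure D2:**
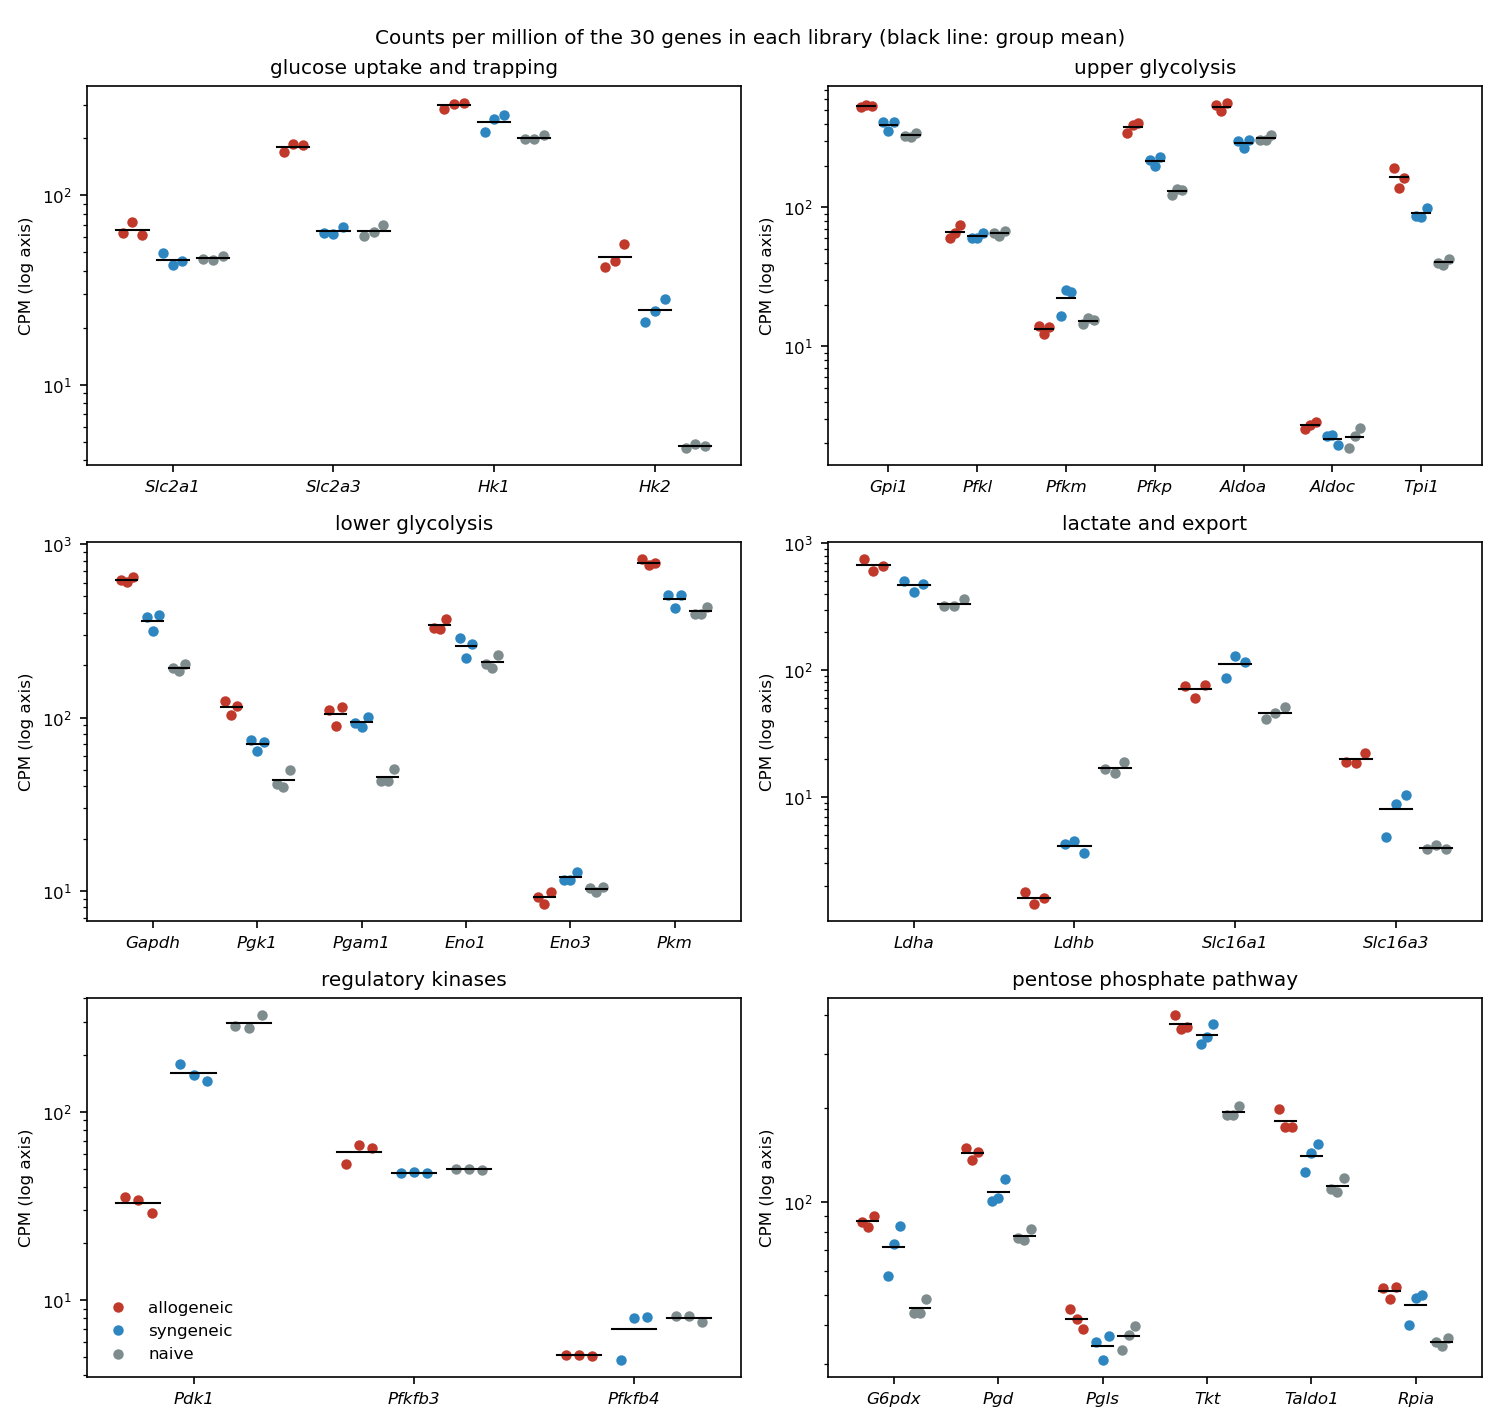
CPM of each gene (log y axis) in each library, in 6 panels by step, with allogeneic, syngeneic and naive libraries from left to right as 1 point each and the group mean as a black line. Allogeneic libraries are highest for most genes, for example Slc2a3 at 169, 186 and 184 CPM. Pdk1 and Ldhb run the other way, with naive libraries highest.

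In upper glycolysis, 4 of 7 genes (57.1%) were higher and 1 (14.3%) was lower in allogeneic against syngeneic cells, where 24.3% and 20.7% of all tested genes were. Phosphofructokinase, whose reaction commits the sugar to glycolysis, was a step at which isozymes moved apart. Pfkp, the platelet-type subunit, stood at 344, 388.5 and 407 CPM in allogeneic libraries, 219, 199 and 231 CPM in syngeneic libraries and 123, 136 and 134 CPM in naive libraries. No library of 1 group overlapped another, and the log2 difference was 0.82 ± 0.09, edgeR adjusted p = 2.34e-05, in allogeneic against syngeneic cells, 1.58 ± 0.09, edgeR adjusted p = 5.53e-08, in allogeneic against naive cells, and 0.76 ± 0.09, edgeR adjusted p = 4.17e-05, in syngeneic against naive cells. Pfkl, the liver-type subunit, stood at 60.6, 65.2 and 74.5 CPM in allogeneic libraries, 60.5, 60.2 and 65.3 CPM in syngeneic libraries and 65.1, 62.5 and 67.2 CPM in naive libraries. All 3 groups overlapped and no comparison was called, with a log2 difference of 0.12 ± 0.08, edgeR adjusted p = 0.251, in allogeneic against syngeneic cells.

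Pfkm, the muscle-type subunit, stood at 13.9, 12.3 and 13.9 CPM in allogeneic libraries, 16.4, 25.6 and 24.6 CPM in syngeneic libraries and 14.5, 15.9 and 15.6 CPM in naive libraries. It was lower in allogeneic than in syngeneic cells (-0.70 ± 0.14, edgeR adjusted p = 0.00213) and higher in syngeneic than in naive cells (0.56 ± 0.14, edgeR adjusted p = 0.00774). Against naive cells the allogeneic value was not called (-0.14 ± 0.14, edgeR adjusted p = 0.42), although the libraries of these groups did not overlap. Syngeneic libraries 2 and 3 were the high ones, and they are also the libraries with more erythroid, neutrophil and macrophage marker RNA, whose part in the result was not tested. Without syngeneic library 1 the log2 fold change was -0.84 in allogeneic against syngeneic cells and 0.70 in syngeneic against naive cells. Exons of Pfkm share 341 bases, 10.2% of its exonic length, with Gm26513 on the same strand, and reads there could be assigned to neither gene or to either.

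Aldoa, which encodes the main aldolase outside liver and brain, stood at 544, 491 and 562 CPM in allogeneic libraries, 302, 265 and 306 CPM in syngeneic libraries and 306, 305 and 334 CPM in naive libraries. Allogeneic libraries were above all others, whereas syngeneic and naive libraries overlapped. The change in log2 was 0.89 ± 0.11, edgeR adjusted p = 8.21e-05, in allogeneic against syngeneic cells, and -0.07 ± 0.11, edgeR adjusted p = 0.637, in syngeneic against naive cells. Tpi1, which interconverts the 2 triose phosphates that aldolase makes, stood at 191, 138 and 164 CPM in allogeneic libraries, 86.9, 85.1 and 99.4 CPM in syngeneic libraries and 39.7, 38.4 and 42.6 CPM in naive libraries. Here the 3 groups formed separate steps, with a log2 difference of 2.09 ± 0.15, edgeR adjusted p = 3.42e-07, in allogeneic against naive cells, and 1.21 ± 0.14, edgeR adjusted p = 5.44e-05, in syngeneic against naive cells.

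Gpi1, the isomerase between hexokinase and phosphofructokinase, averaged 535.5 ± 8.80 CPM in allogeneic cells, 394 ± 36.0 CPM in syngeneic cells and 329.8 ± 12.2 CPM in naive cells. It was higher in allogeneic than in syngeneic cells (0.46 ± 0.10, edgeR adjusted p = 0.00452). Its smaller difference in syngeneic against naive cells (0.30 ± 0.10, edgeR adjusted p = 0.0409) was no longer called without the filter on low counts, without Gm26917 and Gm42418, in a fit of those 2 groups alone, or without any of allogeneic libraries 2 and 3, naive libraries 1, 2 and 3, and syngeneic libraries 1 and 3 (adjusted p 0.0508 to 0.136 by edgeR). Aldoc, an aldolase best known from brain, was low, at 2.54, 2.71 and 2.85 CPM in allogeneic libraries, 2.25, 2.29 and 1.94 CPM in syngeneic libraries and 1.85, 2.25 and 2.61 CPM in naive libraries. In allogeneic against syngeneic cells its log2 difference, 0.33 ± 0.19, edgeR adjusted p = 0.18, was not called.

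In lower glycolysis, where ATP and NADH are made, 4 of 6 genes (66.7%) were higher and 1 (16.7%) was lower in allogeneic against syngeneic cells. In allogeneic against naive cells 5 of 6 (83.3%) were higher. Of all tested genes, 24.3% were higher and 20.7% lower in the first comparison, and 31.8% were higher in the second. Gapdh, often used as a reference gene, stood at 618, 606 and 644 CPM in allogeneic libraries, 383, 314 and 391.7 CPM in syngeneic libraries and 193, 185 and 204 CPM in naive libraries. The groups were apart in every pairing, and Gapdh was 3.34-fold higher in allogeneic than in naive cells (1.74 ± 0.12, edgeR adjusted p = 2.63e-07). It was also 1.93-fold higher in syngeneic than in naive cells (0.95 ± 0.12, edgeR adjusted p = 6.75e-05). Pgk1, which makes ATP at the next step, stood at 124, 103 and 116 CPM in allogeneic libraries, 73.7, 64.5 and 72.6 CPM in syngeneic libraries and 41.1, 39.6 and 49.7 CPM in naive libraries. Its groups did not overlap either, with a log2 difference of 0.72 ± 0.14, edgeR adjusted p = 0.00132, in allogeneic against syngeneic cells, and 0.73 ± 0.14, edgeR adjusted p = 0.00127, in syngeneic against naive cells.

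Pgam1, the mutase that follows, differed from its neighbours in the pathway, at 110.1, 89.8 and 114 CPM in allogeneic libraries, 93.3, 88.2 and 101 CPM in syngeneic libraries and 43.0, 43.1 and 50.5 CPM in naive libraries. Allogeneic and syngeneic libraries overlapped and their difference was not called (0.17 ± 0.12, edgeR adjusted p = 0.275), while both groups were above naive cells (1.26 ± 0.13, edgeR adjusted p = 6.58e-06, for allogeneic and 1.08 ± 0.13, edgeR adjusted p = 4.45e-05, for syngeneic cells). Counts of its annotated near-identical copies were 3.55% of the sum of gene and copies, against 1.42% for Eno1, 0.143% for Ldha and 0.00135% for Gapdh, and adding them changed no call of these 4 genes.

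Pkm, the pyruvate kinase gene whose RNA is spliced into M1 and M2 forms that gene counts do not separate, stood at 819.9, 755 and 778 CPM in allogeneic libraries, 511, 427 and 509 CPM in syngeneic libraries and 397, 397.5 and 435 CPM in naive libraries. Every allogeneic library was above every other library, and syngeneic and naive libraries overlapped. On the log2 scale it differed by 0.72 ± 0.12, edgeR adjusted p = 0.000661, in allogeneic against syngeneic cells, and 0.27 ± 0.12, edgeR adjusted p = 0.0921, in syngeneic against naive cells, where it was not called unless syngeneic library 2 was left out (adjusted p = 0.0355 by edgeR).

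Of the enolases, Eno1, the widely expressed gene, stood at 329, 326 and 371 CPM in allogeneic libraries, 289, 221 and 265 CPM in syngeneic libraries and 205, 194 and 230.1 CPM in naive libraries. Eno3, the muscle gene, stood at 9.22, 8.36 and 9.89 CPM in allogeneic libraries, 11.6, 11.5 and 12.7 CPM in syngeneic libraries and 10.3, 9.86 and 10.4 CPM in naive libraries. Allogeneic libraries were highest for Eno1 and lowest for Eno3 among transplant libraries, and naive libraries overlapped the syngeneic ones for Eno1 and the allogeneic ones for Eno3. The 2 genes moved in opposite directions in allogeneic against syngeneic cells, at 0.41 ± 0.13, edgeR adjusted p = 0.0238, for Eno1 and -0.37 ± 0.12, edgeR adjusted p = 0.0278, for Eno3. Both calls were fragile. That of Eno1 was lost without allogeneic library 1 or 3 or without syngeneic library 2 or 3 (adjusted p 0.0608 to 0.109 by edgeR). That of Eno3 was lost without allogeneic library 2, naive library 1, or syngeneic library 1 or 3, without the filter and in a fit of the 2 groups alone (adjusted p 0.0513 to 0.107 by edgeR). In syngeneic against naive cells Eno1 was not called (0.34 ± 0.13, edgeR adjusted p = 0.0537), but was with DESeq2 (adjusted p = 0.0374), without syngeneic library 2 (edgeR adjusted p = 0.0143), without naive library 3 (0.0402) and with the replicate number as a block (0.0291).

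Lactate and its export held the genes with opposite directions. Ldha (ENSMUSG00000063229, chr7:46841475-46855627) encodes the subunit that favours making lactate from pyruvate, and stood at 748, 602 and 660 CPM in allogeneic libraries, 508, 412 and 478 CPM in syngeneic libraries and 318, 323 and 361 CPM in naive libraries. The 3 groups were apart, with a log2 difference of 0.54 ± 0.14, edgeR adjusted p = 0.0103, in allogeneic against syngeneic cells, 1.07 ± 0.15, edgeR adjusted p = 7.92e-05, in allogeneic against naive cells, and 0.52 ± 0.14, edgeR adjusted p = 0.013, in syngeneic against naive cells. The first call was lost without syngeneic library 2 (adjusted p = 0.0525 by edgeR), and the last without naive library 1 (0.0555) or naive library 2 (0.0526).

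Ldhb (ENSMUSG00000030246, chr6:142490249-142507957), whose subunit favours turning lactate back into pyruvate, stood at 1.78, 1.43 and 1.61 CPM in allogeneic libraries, 4.28, 4.52 and 3.63 CPM in syngeneic libraries and 16.6, 15.5 and 18.9 CPM in naive libraries. The order was reversed from that of Ldha and again without overlap. Ldhb fell 10.2-fold in allogeneic against naive cells (-3.35 ± 0.18, edgeR adjusted p = 4.48e-08), and was lower in syngeneic than in naive cells (-2.00 ± 0.17, edgeR adjusted p = 4.65e-06) and in allogeneic than in syngeneic cells (-1.35 ± 0.17, edgeR adjusted p = 9.31e-05). By level per length, Ldha was 197.4 times Ldhb in allogeneic cells, 53.3 times in syngeneic cells and 9.33 times in naive cells.

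The carriers that let lactate out and in also diverged. Slc16a3 (ENSMUSG00000025161, chr11:120948480-120960868) encodes MCT4, known as the exporter of strongly glycolytic cells, and stood at 18.9, 18.7 and 22.4 CPM in allogeneic libraries, 4.88, 8.86 and 10.3 CPM in syngeneic libraries and 3.90, 4.18 and 3.89 CPM in naive libraries. Allogeneic libraries were highest, and syngeneic library 1 lay below the other syngeneic libraries but above all naive ones. The log2 difference came to 1.35 ± 0.20, edgeR adjusted p = 0.000263, in allogeneic against syngeneic cells, and 2.37 ± 0.21, edgeR adjusted p = 2.13e-06, in allogeneic against naive cells. Without syngeneic library 1 the value against syngeneic cells was 1.12 (edgeR adjusted p = 4.9e-05).

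Slc16a1, which encodes the broadly expressed carrier MCT1, stood at 74.8, 60.9 and 76.8 CPM in allogeneic libraries, 87.3, 129.8 and 117 CPM in syngeneic libraries and 41.1, 45.6 and 51.2 CPM in naive libraries. Syngeneic libraries were the highest here, with library 1 lowest among them, and naive libraries the lowest. It was lower in allogeneic than in syngeneic cells (-0.62 ± 0.14, edgeR adjusted p = 0.00429) but higher in allogeneic than in naive cells (0.68 ± 0.14, edgeR adjusted p = 0.00167). The first value was -0.73 without syngeneic library 1 (edgeR adjusted p = 0.00123). MCT1 is also known in erythrocytes, and the part of erythroid RNA in the syngeneic level was not tested.

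Among the kinases, Pdk1 (ENSMUSG00000006494, chr2:71873224-71903858) changed most. Its enzyme, a mitochondrial kinase, phosphorylates and switches off pyruvate dehydrogenase, which limits how much pyruvate becomes acetyl-CoA for the citric acid cycle. Pdk1 stood at 35.3, 33.9 and 28.9 CPM in allogeneic libraries, 179.5, 156 and 145 CPM in syngeneic libraries and 285, 277.5 and 326 CPM in naive libraries. Naive libraries were highest, syngeneic libraries lay between, and allogeneic libraries were lowest, with wide gaps between groups. The level was 4.84-fold lower in allogeneic than in syngeneic cells (-2.28 ± 0.15, edgeR adjusted p = 5.89e-07) and 8.69-fold lower in allogeneic than in naive cells (-3.12 ± 0.15, edgeR adjusted p = 2.09e-08). By level per length Pdk1 ranked 25 of the 30 genes in allogeneic cells, 15 in syngeneic cells and 8 in naive cells.

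Pfkfb3 and Pfkfb4 encode bifunctional enzymes that set the level of fructose 2,6-bisphosphate, the activator of phosphofructokinase. Pfkfb3 stood at 52.6, 66.7 and 63.9 CPM in allogeneic libraries, 47.5, 47.8 and 47.4 CPM in syngeneic libraries and 49.8, 49.8 and 49.2 CPM in naive libraries. Allogeneic libraries were above the rest (0.37 ± 0.08, edgeR adjusted p = 0.00232, against syngeneic cells), and syngeneic against naive cells gave -0.02 ± 0.08, edgeR adjusted p = 0.855. Pfkfb4 stood at 5.15, 5.12 and 5.07 CPM in allogeneic libraries, 4.80, 8.07 and 8.19 CPM in syngeneic libraries and 8.28, 8.20 and 7.65 CPM in naive libraries, with syngeneic library 1 below even the allogeneic values and the other syngeneic libraries near the naive ones. It was lower in allogeneic than in naive cells (-0.60 ± 0.17, edgeR adjusted p = 0.012). In allogeneic against syngeneic cells it was not called (-0.43 ± 0.17, edgeR adjusted p = 0.0662), but was with DESeq2 (adjusted p = 0.0333) and without syngeneic library 1 (-0.60, edgeR adjusted p = 0.00511).

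Most pentose phosphate genes were higher in both kinds of transplanted cells than in naive cells. Their sum was 930.4, 845 and 865 CPM in allogeneic libraries, 682, 738 and 816 CPM in syngeneic libraries and 489, 488 and 530.0 CPM in naive libraries. In allogeneic against naive cells 5 of 6 genes were higher, in syngeneic against naive cells 5 of 6, and in allogeneic against syngeneic cells 3 of 6, and none was lower in any of these comparisons. In the same order, 31.8%, 22.4% and 24.3% of all tested genes were higher and 25.9%, 19.5% and 20.7% were lower. In the oxidative branch, G6pdx, the entry enzyme that makes NADPH, stood at 85.9, 83.0 and 90.1 CPM in allogeneic libraries, 57.4, 72.8 and 83.3 CPM in syngeneic libraries and 43.8, 43.9 and 48.7 CPM in naive libraries. All transplant libraries were above all naive ones (0.98 ± 0.11, edgeR adjusted p = 1.81e-05, for allogeneic and 0.68 ± 0.11, edgeR adjusted p = 0.000513, for syngeneic cells), and syngeneic library 3 lay within the allogeneic range.

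The smaller G6pdx difference between allogeneic and syngeneic cells (0.30 ± 0.11, edgeR adjusted p = 0.043) was not robust. It was no longer called with DESeq2 size factors, with library size alone, without Gm26917 and Gm42418, in a fit of the 2 groups alone, or without any of allogeneic libraries 1 and 3, naive library 1 and syngeneic libraries 1 and 2 (adjusted p 0.0505 to 0.126 by edgeR). G6pdx shares 418 exonic bases (13.6%) with Ikbkg on the opposite strand, and use of the strand in counting was not given in the sources used here. Pgd, the other NADPH-producing dehydrogenase, stood at 149, 137 and 145 CPM in allogeneic libraries, 101, 103 and 118 CPM in syngeneic libraries and 76.4, 75.02 and 81.8 CPM in naive libraries. Its groups did not overlap, at 0.44 ± 0.10, edgeR adjusted p = 0.00353, in allogeneic against syngeneic cells and 0.50 ± 0.10, edgeR adjusted p = 0.00157, in syngeneic against naive cells. Pgls, the lactonase between them, averaged 42.0 ± 3.08 CPM in allogeneic cells, 34.4 ± 3.12 CPM in syngeneic cells and 36.8 ± 3.27 CPM in naive cells. It was called in no comparison (0.31 ± 0.13, edgeR adjusted p = 0.066, in allogeneic against syngeneic cells), though that difference was called with library size alone (edgeR adjusted p = 0.0367) and without syngeneic library 1 (0.0409). Exons of Pgls share 20.6% of their length with Fam129c on the same strand.

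In the branch that rearranges sugars, Tkt, transketolase, stood at 399, 361 and 364 CPM in allogeneic libraries, 323, 339 and 375 CPM in syngeneic libraries and 190, 190.2 and 204 CPM in naive libraries. Allogeneic and syngeneic libraries overlapped (0.14 ± 0.10, edgeR adjusted p = 0.286), and both were well above naive libraries (1.00 ± 0.10, edgeR adjusted p = 8.71e-06, for allogeneic and 0.86 ± 0.10, edgeR adjusted p = 5.82e-05, for syngeneic cells). Rpia, which makes ribose 5-phosphate, had the same order, at 0.17 ± 0.09 in allogeneic against syngeneic cells, not called, 0.60 ± 0.09 in allogeneic against naive cells and 0.43 ± 0.09 in syngeneic against naive cells, both called. Taldo1, transaldolase, stood at 199, 174 and 173.5 CPM in allogeneic libraries, 124.5, 143 and 153 CPM in syngeneic libraries and 110.1, 107 and 119 CPM in naive libraries. It was higher in allogeneic than in syngeneic cells (0.41 ± 0.11, edgeR adjusted p = 0.0123). Its call in syngeneic against naive cells (0.35 ± 0.11, edgeR adjusted p = 0.0254) was lost without naive library 1 or 2 or syngeneic library 2 or 3 (adjusted p 0.0547 to 0.0975 by edgeR).

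The ratio of 2 genes of the same step within a library does not depend on how libraries are scaled. It was taken as the log2 of read counts for 9 such pairs, and compared between groups with 2-sided exact permutation tests. With 3 against 3 libraries the smallest p these tests allow is 0.1, or 0.129 after Benjamini-Hochberg adjustment over the 27 tests, so none can pass 0.05. The ratio of Ldhb to Ldha averaged -8.70 ± 0.02 in allogeneic cells, -6.81 ± 0.27 in syngeneic cells and -4.30 ± 0.07 in naive cells (SD over 3 libraries). That of Hk2 to Hk1 averaged -2.67 ± 0.18 in allogeneic cells, -3.31 ± 0.08 in syngeneic cells and -5.41 ± 0.06 in naive cells. Both ratios separated the 3 groups without overlap, in opposite directions.

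The ratio of Pfkp to Pfkl averaged 2.51 ± 0.06 in allogeneic cells, 1.80 ± 0.07 in syngeneic cells and 1.01 ± 0.10 in naive cells, again 3 separate levels. For Slc2a3 to Slc2a1 it averaged 1.45 ± 0.11 in allogeneic cells, 0.50 ± 0.14 in syngeneic cells and 0.48 ± 0.07 in naive cells. For Slc16a3 to Slc16a1 it averaged -1.82 ± 0.15 in allogeneic cells, -3.84 ± 0.33 in syngeneic cells and -3.52 ± 0.17 in naive cells. In these last pairs allogeneic libraries stood apart, whereas syngeneic and naive libraries overlapped (exact permutation p = 0.8 for the glucose carriers and 0.2 for the lactate carriers). All 9 ratios separated allogeneic from syngeneic libraries without overlap, and 8 of 9, all but Pfkm to Pfkl, separated allogeneic from naive libraries (exact permutation p = 0.1 each).

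**Figure D3:**
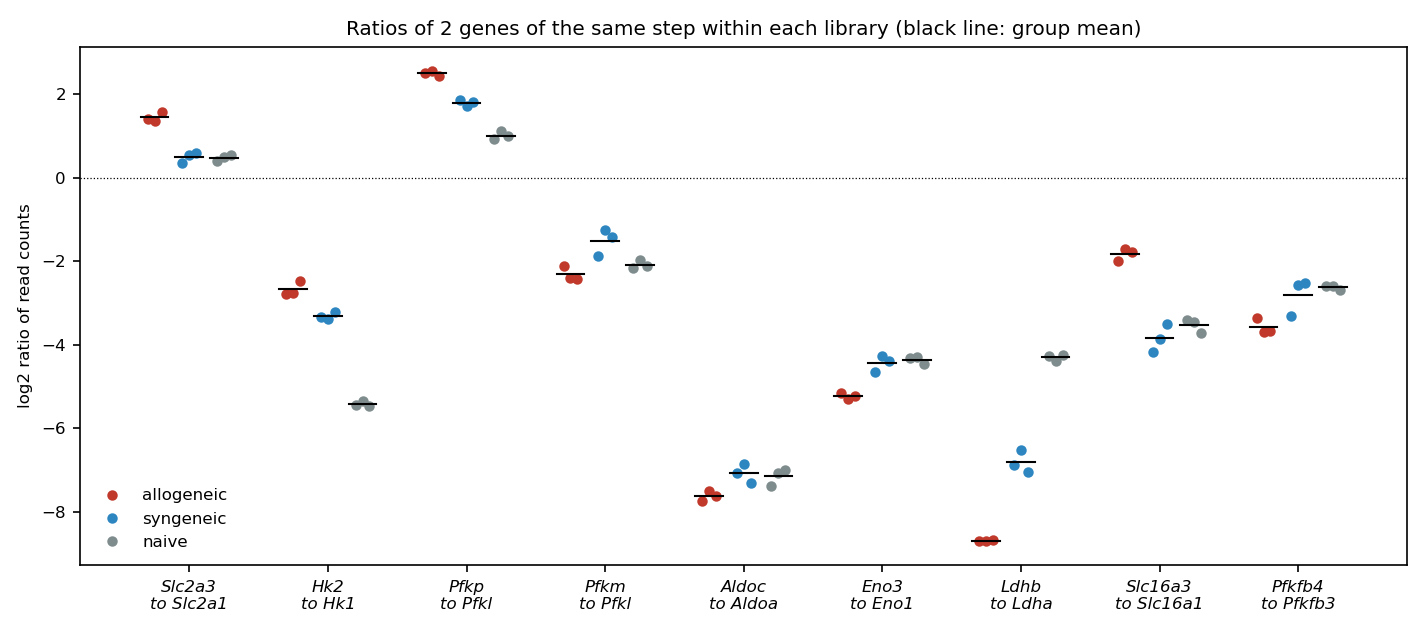
Log2 ratio of the read counts of 2 genes of the same step (y axis) in each library, with allogeneic, syngeneic and naive libraries from left to right as 1 point each and the group mean as a black line. Counts are not corrected for length, so heights compare groups within a pair. Ldhb to Ldha runs lowest in allogeneic libraries, at a mean of -8.70, and Hk2 to Hk1 lowest in naive libraries, at -5.41.

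Levels per kilobase of exon were led by the same 4 enzymes of glycolysis in allogeneic and syngeneic cells. The length counts all annotated exons of a gene, such as 4133 bases for Gapdh, and ranks depend on that choice. In allogeneic cells the order was Ldha (202.5 CPM per kilobase), Aldoa (182.8), Pkm (156.9) and Gapdh (150.7), followed by Taldo1 (84.0) and Gpi1 (83.0), with Aldoc last (0.826). In syngeneic cells Ldha (140.8), Aldoa (100.0), Pkm (96.4) and Gapdh (87.8) led in the same order. In naive cells Aldoa (108.2) and Ldha (100.9) led, Pkm followed (82.0), and Gapdh ranked 6 (46.9). The median SD over 3 libraries was 7.7% of the mean in allogeneic, 9.6% in syngeneic and 5.2% in naive cells. Neighbours such as Taldo1 and Gpi1 or Pgk1 (51.0) and Tkt (50.9) in allogeneic cells were closer than this spread.

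Known regulators of the pathway were examined beside it. Of 9 genes of the hypoxia-inducible factors and their oxygen-sensing regulators, 8 were higher and 0 lower in allogeneic against syngeneic cells, 5 higher and 1 lower in allogeneic against naive cells, and 0 higher and 7 lower in syngeneic against naive cells. As shares higher and lower these are 88.9% and 0.0%, 55.6% and 11.1%, and 0.0% and 77.8%. All tested genes gave 24.3% and 20.7%, 31.8% and 25.9%, and 22.4% and 19.5%. Epas1 (HIF-2 alpha) stood at 219.6, 305 and 259 CPM in allogeneic libraries, 9.24, 7.88 and 8.38 CPM in syngeneic libraries and 19.0, 17.0 and 19.3 CPM in naive libraries, far higher in every allogeneic library. The log2 fold change came to 4.94 ± 0.14, edgeR adjusted p = 2.74e-09, in allogeneic against syngeneic cells. Hif1a (HIF-1 alpha), a known activator of glycolytic genes, stood at 248, 259 and 335 CPM in allogeneic libraries, 102, 111 and 103 CPM in syngeneic libraries and 106, 117 and 113 CPM in naive libraries. Allogeneic libraries were again apart (1.42 ± 0.10, edgeR adjusted p = 6.91e-07, against syngeneic cells), and syngeneic and naive libraries overlapped. Egln3, a prolyl hydroxylase that marks HIF for degradation and is itself a HIF target, had a log2 difference of 1.65 ± 0.18, edgeR adjusted p = 2.39e-05, in the same comparison.

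Of 18 hypoxia targets outside glycolysis, 5 were higher and 3 lower in allogeneic against syngeneic cells, 8 higher and 4 lower in allogeneic against naive cells, and 5 higher and 4 lower in syngeneic against naive cells. In allogeneic against syngeneic cells these are 27.8% higher and 16.7% lower, near the 24.3% and 20.7% of all tested genes, and the median of the list was -0.02, 0.38 and 0.20 in log2 in the 3 comparisons. Against naive cells the shares were 44.4% and 22.2% for allogeneic cells, beside 31.8% and 25.9% of all tested genes. For syngeneic cells they were 27.8% and 22.2%, beside 22.4% and 19.5%. Among its called genes with a mean of at least 1 CPM in either group, the 3 with the largest difference between allogeneic and syngeneic cells were Bhlhe40, a transcription factor of T-cell cytokine programs, Ddit4, an inhibitor of mTORC1, and Ndrg1. Bhlhe40 stood at 380.5, 438 and 396.5 CPM in allogeneic libraries, 59.5, 63.9 and 70.0 CPM in syngeneic libraries and 9.59, 13.3 and 9.14 CPM in naive libraries, Ddit4 rose by 1.52 ± 0.15 in log2, and Ndrg1 by 1.42 ± 0.13. Adm, which encodes the peptide adrenomedullin and is named here after its values were seen, lay below that level, at a mean of 0.0287 CPM in allogeneic and 0.0943 CPM in syngeneic cells, and was called lower (-1.58 ± 0.59, edgeR adjusted p = 0.0481). P4ha1, a prolyl hydroxylase of collagen likewise named after its values were seen, was also lower (-1.15 ± 0.13, edgeR adjusted p = 2.73e-05). Vegfa, named in the same way, was the remaining gene called lower (-0.94 ± 0.32, edgeR adjusted p = 0.0322), with overlapping libraries. Both transplant groups were above naive cells in Vegfa.

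Of 17 growth regulators of glycolysis, 4 were higher and 4 lower in allogeneic against syngeneic cells, and likewise 4 and 4 in allogeneic against naive cells. In syngeneic against naive cells 2 were higher and 2 lower. The share in the first comparison, 23.5% each way, is near the 24.3% and 20.7% of all tested genes. Allogeneic against naive cells also gave 23.5% each way, beside 31.8% and 25.9%. Syngeneic against naive cells gave 11.8% each way, beside 22.4% and 19.5%. Myc, a known inducer of Slc2a1, Hk2, Ldha and Pkm in activated T cells, stood at 82.3, 82.4 and 97.1 CPM in allogeneic libraries, 203, 181 and 212 CPM in syngeneic libraries and 142, 138 and 141 CPM in naive libraries. Myc was highest in syngeneic and lowest in allogeneic libraries, without overlap. Hk2, Ldha, Pkm and Slc2a1 were highest in allogeneic libraries. Irf4, a factor induced by T-cell receptor signals, stood at 67.1, 72.7 and 83.7 CPM in allogeneic libraries, 32.2, 35.5 and 32.7 CPM in syngeneic libraries and 17.3, 23.4 and 18.9 CPM in naive libraries, with the groups in the order of Hk2 (1.17 ± 0.10, edgeR adjusted p = 5.26e-06, in allogeneic against syngeneic cells). Nfe2l2, the NRF2 gene and a known activator of pentose phosphate enzymes, stood at 38.5, 37.6 and 38.9 CPM in allogeneic libraries, 63.0, 63.0 and 68.1 CPM in syngeneic libraries and 73.1, 76.1 and 76.5 CPM in naive libraries, lowest in allogeneic libraries (-0.74 ± 0.08, edgeR adjusted p = 2.8e-05, against syngeneic cells). Levels of these RNAs do not measure the activity of the proteins. The part of Myc, Irf4, Nfe2l2 and the hypoxia-inducible factors in the levels of glycolysis and pentose phosphate genes was not tested.

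**Figure D4:**
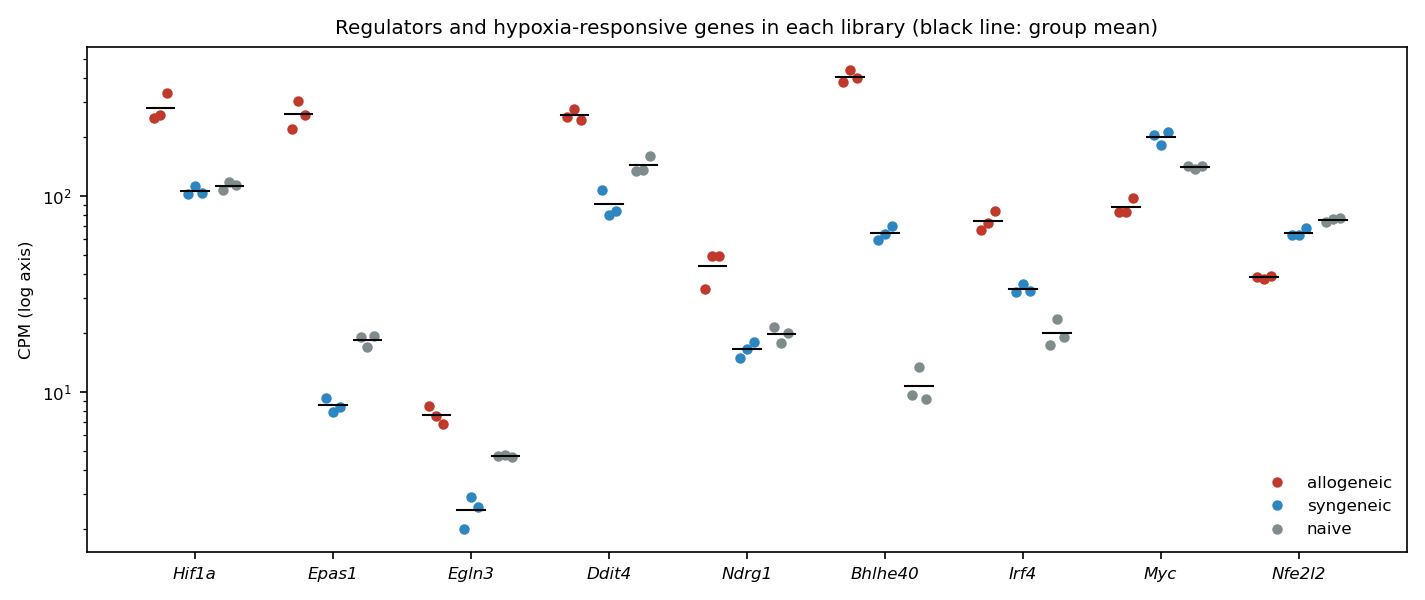
CPM of 9 regulators and hypoxia-responsive genes (log y axis) in each library, with allogeneic, syngeneic and naive libraries from left to right as 1 point each and the group mean as a black line. Hif1a and Epas1 are apart and higher in allogeneic libraries, while Myc is lowest there, at 82.3, 82.4 and 97.1 CPM. Hypoxia targets called lower in allogeneic against syngeneic cells (Adm, P4ha1 and Vegfa) are not shown.

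The 3 other lists around the pathway showed no common direction between allogeneic and syngeneic cells. Of 12 genes for pyruvate entry into mitochondria, 2 were higher and 1 lower in allogeneic against syngeneic cells, 3 and 3 in allogeneic against naive cells, and 2 and 3 in syngeneic against naive cells. All tested genes gave 24.3% and 20.7%, 31.8% and 25.9%, and 22.4% and 19.5%. The list lay below each of these shares except the last, the share lower in syngeneic against naive cells. Pdk2, another pyruvate dehydrogenase kinase, stood at 4.09, 5.51 and 3.65 CPM in allogeneic libraries, 7.18, 6.48 and 5.70 CPM in syngeneic libraries and 17.7, 16.7 and 18.3 CPM in naive libraries, in the same order as Pdk1 (-0.54 ± 0.17, edgeR adjusted p = 0.0265, in allogeneic against syngeneic cells). Pdk3, a further kinase of the family, ran the other way, at 35.9, 30.9 and 34.1 CPM in allogeneic libraries, 21.9, 27.4 and 27.1 CPM in syngeneic libraries and 17.2, 17.4 and 17.7 CPM in naive libraries (0.43 ± 0.11, edgeR adjusted p = 0.00851, in the same comparison). Mpc1, a subunit of the mitochondrial pyruvate carrier, was higher in allogeneic than in syngeneic cells (0.33 ± 0.11, edgeR adjusted p = 0.03).

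Of 26 other isozymes of the same steps 24 were in the table and 19 passed the filter, with 7 higher and 4 lower in allogeneic against syngeneic cells, 10 and 5 in allogeneic against naive cells, and 7 and 5 in syngeneic against naive cells. As shares of the 19 these are 36.8% and 21.1%, 52.6% and 26.3%, and 36.8% and 26.3%. All tested genes gave 24.3% and 20.7%, 31.8% and 25.9%, and 22.4% and 19.5%. Tktl1, a transketolase-like gene, was low but higher in allogeneic libraries, at 0.950, 1.43 and 1.40 CPM in allogeneic libraries, 0.0921, 0.102 and 0.102 CPM in syngeneic libraries and 0.188, 0.168 and 0.410 CPM in naive libraries. Of 16 other hexose and monocarboxylate carriers 10 passed the filter, with 2 higher and 3 lower in allogeneic against syngeneic cells and 6 higher in each transplant group against naive cells, where 0 were lower in allogeneic and 1 in syngeneic cells. Beside these 10 carriers, 24.3% of all tested genes were higher and 20.7% lower in allogeneic against syngeneic cells. Against naive cells 31.8% were higher and 25.9% lower for allogeneic cells, and 22.4% and 19.5% for syngeneic cells. Slc2a8, which encodes the intracellular carrier GLUT8, stood at 31.9, 36.2 and 24.6 CPM in allogeneic libraries, 4.14, 5.81 and 6.07 CPM in syngeneic libraries and 5.10, 5.18 and 4.17 CPM in naive libraries, and its libraries separated allogeneic cells from both other groups (2.56 ± 0.18, edgeR adjusted p = 9.77e-07, against syngeneic cells).

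Marker RNA of other cells varied beside these results. The 8 neutrophil markers summed to 602 to 1089 CPM in allogeneic libraries, 405, 1256 and 1359 CPM in syngeneic libraries and 1.55 to 5.06 CPM in naive libraries. The 11 macrophage and monocyte markers summed to 50.03 to 87.6 CPM in allogeneic, 52.2, 206 and 192 CPM in syngeneic and 3.60 to 4.74 CPM in naive libraries. In both lists syngeneic libraries 2 and 3 were the highest of all and naive libraries the lowest. The 7 NK-cell markers, some of which cytotoxic T cells also express, summed to 1718 to 1973 CPM in allogeneic, 280 to 334 CPM in syngeneic and 136 to 147 CPM in naive libraries. The 8 B-cell markers summed to 35.8 to 46.4 CPM in allogeneic, 81.4 to 109 CPM in syngeneic and 16.5 to 20.9 CPM in naive libraries, and the 6 platelet markers to 156 to 262 CPM in allogeneic, 95.7 to 98.4 CPM in syngeneic and 152 to 172 CPM in naive libraries. Marker by marker, the platelet list did not follow its sum. In allogeneic against syngeneic cells 1 was higher and 2 lower, with a median log2 fold change of -1.15. Against naive cells, 2 were higher and 0 lower in allogeneic cells (median 1.67), and 4 higher and 1 lower in syngeneic cells (3.18). The macrophage marker Fcgr1 was at 0 in all naive libraries, and the NK-cell marker Klra8 in all allogeneic libraries.

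All of these cell types use glycolysis, and their part in the levels of the 30 genes was not tested. Syngeneic library 1, with the least erythroid, neutrophil and macrophage RNA of its group, also had the lowest syngeneic level of Hk1, Hk2, Pfkm, Slc16a1, Slc16a3, Pfkfb4, G6pdx, Pgd, Tkt, Taldo1 and Rpia. It had the highest syngeneic level of Slc2a1, Pgk1, Eno1, Pkm, Ldha and Pdk1. Without it, 18 of the 30 genes were higher and 5 lower in allogeneic against syngeneic cells, and 16 were higher and 2 lower in syngeneic against naive cells. The difference in Pdk1 between allogeneic and syngeneic cells was then -2.13, that in Ldhb -1.27, that in Hk2 0.91 and that in Slc2a3 1.52 in log2, each still called by edgeR. Without allogeneic library 1, 16 of the 30 genes were higher and 5 lower in allogeneic against syngeneic cells, and 22 were higher and 3 lower in allogeneic against naive cells. The calls of Eno1 (0.38, edgeR adjusted p = 0.0608) and G6pdx (0.25, 0.118) against syngeneic cells were lost, and the differences in Pdk1 (-2.40), Ldhb (-1.49), Hk2 (0.99) and Slc2a3 (1.48) remained called.

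**Figure D5:**
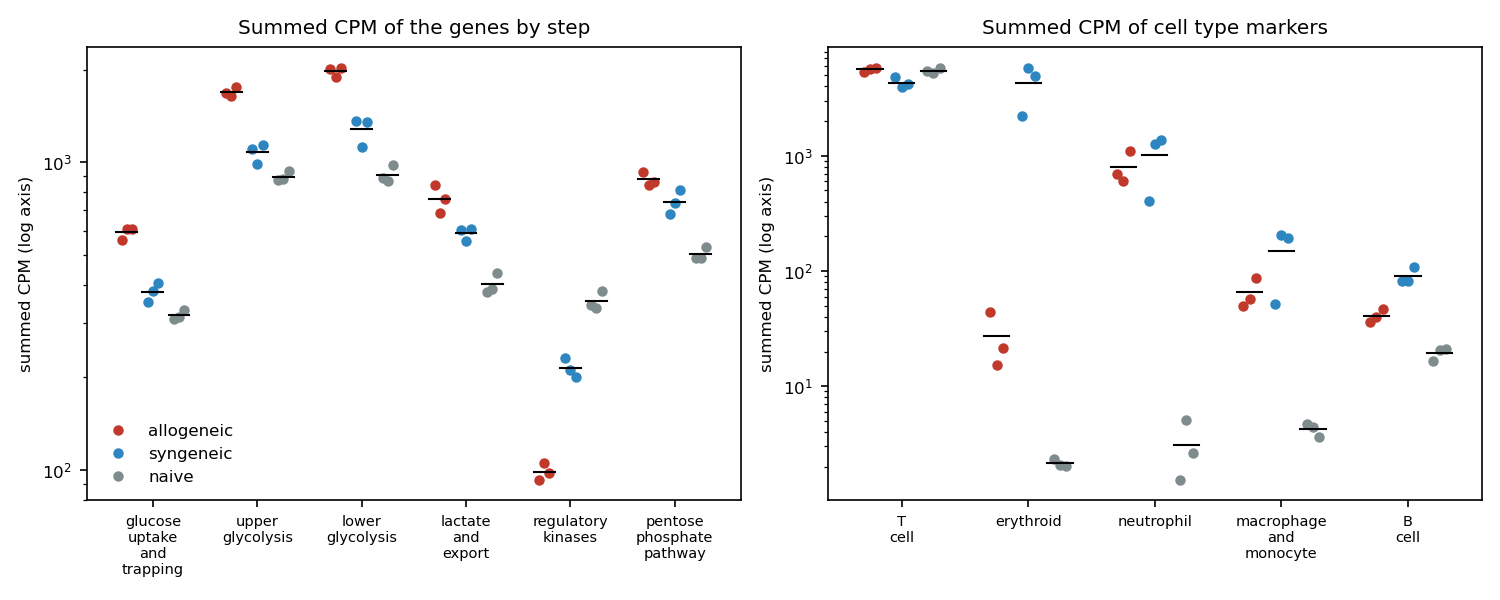
Summed CPM (log y axis) of the 30 genes by step (left) and of marker genes of T cells and other cell types (right) in each library, with allogeneic, syngeneic and naive libraries from left to right as 1 point each and the group mean as a black line. Every step but the regulatory kinases is highest in allogeneic libraries by its mean, while erythroid markers are highest in syngeneic libraries, at 2232 to 5728 CPM.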

How the data were processed

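Stranded libraries were made from total RNA of the sorted cells after removal of ribosomal RNA, per the labels' protocols. The deposited file is 1 matrix of unnormalized read counts that the authors made for all 9 libraries, keyed by Ensembl identifier. The submitters' processing notes name GRCm38 and the tools HTSeq 0.6.1, Bowtie2 2.2.1, TopHat2 2.0.13 and FastQC 0.11.3. Annotation release, strandedness of counting and treatment of multiply aligned reads were not given in the sources used here, so that overlapping genes and near-identical copies may share reads. Symbols, exon lengths and positions came from GENCODE M21, which matched 29014 of 29229 identifiers, and 541 genes had no count. Gm26917 and Gm42418, a ribosomal RNA locus by background knowledge, took a share of counts that differed between groups and stayed in the totals behind CPM. The strain tag of all 9 libraries conflicts with the protocols and was not used. Transplant replicates are pools of hosts. For naive libraries, pooling was not given in the sources used here. P-values for them measure only the spread between these libraries.

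The filterByExpr function of edgeR, applied by group, kept 19609 genes, and TMM factors were 0.904 to 1.05. All 9 libraries entered 1 quasi-likelihood model of edgeR 4.0.16 (R 4.3.3) with the group as its only term. The common biological coefficient of variation was 0.193. Calls were made at an adjusted p under 0.05 after Benjamini-Hochberg adjustment, and the SE was the log2 fold change divided by the square root of F. Printed CPM are counts divided by the column total, times 1000000. Ratios of 2 genes used counts plus 0.5. Replicate libraries differed beyond sampling noise, so none was counted as a repeat of another.

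The 30 genes and all gene lists were chosen with earlier results of these data known. From each list around the pathway, the text names the 3 called genes with the largest absolute log2 fold change between allogeneic and syngeneic cells and a mean of at least 1 CPM in either group. Alternatives were DESeq2 1.42.0, limma-voom (limma 3.58.1), DESeq2 size factors, library size alone, no filter, no Gm26917 and Gm42418, the 2 groups alone, a replicate block, added counts of near-identical copies, and leaving out each library.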

Additional observations from a re-analysis of the deposited data

How the results depend on the processing

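Of 1620 values of the 30 genes in 3 comparisons under 18 alternatives, 1553 kept their direction and side of the threshold, 36 lost a call, 9 gained one and 22 changed sign. The calls lost or gained are given with each gene in the results, and each of the sign changes was in a difference that was not called; the cause was not tested. In syngeneic against naive cells, Slc2a1 was -0.025 with library size alone, -0.001 without the filter and -0.007 in a fit of the 2 groups alone, Slc2a3 was -0.01 with library size alone, and Aldoc was 0.01 with limma-voom. Leaving out each library in turn, the value of that comparison ranged from -0.096 to 0.077 for Slc2a1, -0.015 to 0.099 for Slc2a3, -0.079 to 0.012 for Pfkl, -0.15 to 0.001 for Aldoa, -0.131 to 0.134 for Aldoc, -0.068 to 0.002 for Pfkfb3, -0.279 to 0.008 for Pfkfb4 and -0.129 to 0.025 for Pgls. In allogeneic against naive cells, Pfkl ranged from -0.022 to 0.135. Leaving out libraries, 15 to 18 of the 30 genes were higher and 4 to 5 lower in allogeneic against syngeneic cells, 22 and 3 each time in allogeneic against naive cells, and 14 to 18 and 2 in syngeneic against naive cells. The other alternatives gave 17 to 18 and 4 to 6, 22 and 3, and 16 to 18 and 2.

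The labels state no pairing by replicate number, and libraries were not paired. Deviations from the group means of same-numbered libraries correlated at -0.12 to 0.26 over 9 pairs of libraries, against -0.25 to 0.19 over the other 18. With 3 libraries a group these values cannot exclude a pairing. With the replicate block, 18 of the 30 genes were higher and 5 lower in allogeneic against syngeneic cells, 22 and 3 in allogeneic against naive cells, and 18 and 2 in syngeneic against naive cells, and apart from Eno1 in the last of these no call of the 30 genes changed. Depth limits the lowest genes most: Ldhb in allogeneic cells rested on 630 counts and Aldoc on 1073 over 3 libraries. The number of libraries, 3 a group, limits the precision of every comparison.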

Other observations

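Several genes beside the pathway were highest in syngeneic libraries, where erythroid marker RNA was also high (2232, 5728 and 4896 CPM), and the part of that RNA in these results was not tested. Slc2a4, which encodes the insulin-responsive carrier GLUT4, stood at 0.161, 0.0453 and 0.0481 CPM in allogeneic libraries, 4.30, 16.3 and 12.99 CPM in syngeneic libraries and 0, 0 and 0.00872 CPM in naive libraries. Its naive value rests on 1 count in all, so that no fold change against naive cells is given, and in allogeneic against syngeneic cells its log2 difference was -7.01 ± 0.61, edgeR adjusted p = 5.2e-06. Slc16a10, an aromatic amino acid carrier of the monocarboxylate family, stood at 8.69, 4.25 and 5.81 CPM in allogeneic libraries, 29.0, 89.0 and 73.8 CPM in syngeneic libraries and 10.7, 10.8 and 10.8 CPM in naive libraries (-3.30 ± 0.37, edgeR adjusted p = 3.62e-05, in allogeneic against syngeneic cells). Bpgm, which makes the 2,3-bisphosphoglycerate that tunes hemoglobin in red cells, stood at 26.0, 23.9 and 20.8 CPM in allogeneic libraries, 54.0, 97.3 and 75.5 CPM in syngeneic libraries and 19.4, 18.9 and 21.0 CPM in naive libraries (-1.65 ± 0.18, edgeR adjusted p = 2.39e-05). In all 3 genes syngeneic library 1 was the lowest of its group, as it was in erythroid, neutrophil and macrophage markers. Its T-cell markers were the highest of the group, at 4822 CPM, against 3912 and 4159 CPM in syngeneic libraries 2 and 3.

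Of 7 gluconeogenesis genes 5 passed the filter, with 1 higher and 2 lower in allogeneic against syngeneic cells, 2 higher and 0 lower in allogeneic against naive cells, and 3 higher and 0 lower in syngeneic against naive cells. As shares higher and lower, all tested genes gave 24.3% and 20.7%, 31.8% and 25.9%, and 22.4% and 19.5%. Pck2, the mitochondrial enzyme that makes phosphoenolpyruvate, stood at 15.5, 10.1 and 11.8 CPM in allogeneic libraries, 19.8, 45.3 and 45.0 CPM in syngeneic libraries and 17.6, 16.5 and 19.9 CPM in naive libraries. Pcx, pyruvate carboxylase, stood at 6.18, 5.73 and 5.74 CPM in allogeneic libraries, 8.46, 16.3 and 14.4 CPM in syngeneic libraries and 5.00, 4.33 and 4.97 CPM in naive libraries. Both were lower in allogeneic than in syngeneic cells (-1.51 ± 0.27, edgeR adjusted p = 0.00103, for Pck2 and -1.11 ± 0.20, edgeR adjusted p = 0.000957, for Pcx), with syngeneic library 1 again lowest of its group. G6pc3, a glucose-6-phosphatase found in many tissues, was higher in allogeneic than in syngeneic cells (0.40 ± 0.10, edgeR adjusted p = 0.00717). Ldhd, which oxidises D-lactate, was low, at 0.873, 2.14 and 1.97 CPM in allogeneic libraries, 0.921, 0.835 and 0.692 CPM in syngeneic libraries and 3.06, 1.98 and 3.65 CPM in naive libraries, and its call (1.01 ± 0.33, edgeR adjusted p = 0.0282, in allogeneic against syngeneic cells) came with overlapping libraries.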
